A study of Macaca fascicularis with 23 samples.

Results

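A set of 10 regulators of the G1 phase of the cell cycle were followed across the culture states of cynomolgus monkey (Cm) pluripotent stem cells (PSCs). They were chosen by name, as G1 brakes and drivers, with earlier results of these libraries known. The brakes are CDKN1A, CDKN2C, BTG2, GADD45A and HBP1, the drivers are CCND3, CDK6 and CDC25A, and the E2F transcription factors are E2F2 and E2F3. All 10 were among the 8415 genes analysed here, 8 of them under their own symbol and 2 by gene ID, CCND3 (101865999) and HBP1 (101866831). A gene counted as expressed when log2(RPM + 1) was above 4 in at least 1 PSC library, where RPM is the read count of a gene scaled to the library total. This held for 2776 of the 8415 genes and for 9 of the 10 regulators, all except CDKN2C, and E2F2 was above 4 in only 2 libraries, both differentiated.

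Expression was measured by SC3-seq, a method that sequences cDNA from the 3′ end of transcripts, in 21 PSC libraries and 2 libraries of somatic cells. Each of 7 lines gave 1 library in each of 3 media. CMK6, TRSK and CMK9 are ESC lines. The iPSCs derived from a single foetus, which also gave the 2 somatic libraries, and comprised the liver-derived lines iPS-L3 and iPS-L6 and the stomach-derived lines iPS-S6 and iPS-S12. For the primed state the medium was bFGF/KSR (basic fibroblast growth factor and knock-out serum replacement). Naïve-like PSCs carried Dox-inducible hKLF2 and hNANOG transgenes and were kept in K5cLD medium. This medium holds CHIR99021 and kenpaullone, which both inhibit GSK-3β, the adenylyl cyclase activator forskolin, the protein kinase C inhibitor Gö6983 and the BRAF inhibitor SB590885, with LIF and doxycycline (Dox). Kenpaullone also inhibits cyclin-dependent kinases. Differentiated cells were the same converted lines after withdrawal of LIF and Dox, in K5c medium, so they carried the transgenes and met the inhibitors, kenpaullone included, as the naïve-like cells did. The iPSC lines had been made with episomal vectors, 1 of which carries a small hairpin RNA against p53, and that vector was still found in some of them by genomic PCR. All PSC lines were grown free of feeder cells for several passages before RNA was taken.

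Cells leave G1 when cyclin D with CDK4 or CDK6, and then cyclin E with CDK2, phosphorylate the retinoblastoma proteins and free the E2F factors, which switch on genes for DNA replication. The inhibitors of the CIP/KIP family (such as CDKN1A, the p21 protein) and of the INK4 family (such as CDKN2C, the p18 protein) hold the kinases back, and p53 raises CDKN1A, BTG2 and GADD45A after DNA damage. Primate PSCs are known for a short G1 phase, which lengthens as they differentiate.

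The libraries held 861000 to 7986000 reads, with a median of 3250000 for the primed, 2648000 for the naïve-like and 3063000 for the differentiated state. The level of 3 reads was 0.376 to 3.49 RPM, a floor that covers counting error only. The library numbers run by medium, so a preparation batch and the medium cannot be told apart, and with bulk RNA fewer cells of a kind cannot be told apart from less RNA per cell. Summed RPM of 8 pluripotency markers was 789 to 2487 in primed, 1815 to 2709.7 in naïve-like and 1046 to 2142 in differentiated libraries. The lowest value was in primed iPS-S12. In differentiated libraries LIN28A (634 to 1417 RPM) and SOX2 (220 to 653 RPM) overlapped their naïve-like levels, as did DPPA2. POU5F1 had 137 to 575 RPM in naïve-like and 3.59 to 69.2 RPM in differentiated libraries, and CRIPTO 89.1 to 126 and 0 to 9.07 RPM. HESX1, L1TD1 and DPPA4 were also lower in differentiated than in naïve-like libraries without overlap. Earlier results had set apart the primed iPS-S12, primed CMK9 and naïve-like CMK6 libraries, and without these 3 no difference of a regulator between media moved by more than 0.23, other than those of E2F2 given with its levels. Of 6 fibroblast and mesenchymal markers, the sum was 656 to 1609 RPM in primed, 142 to 445 in naïve-like and 244 to 815 in differentiated libraries, and CAV1 alone had 551 to 1365 RPM in primed libraries. The library labelled liver had no read of 8 hepatocyte markers, ALB and AFP included, and 4832.5 RPM of the collagen gene COL1A2. The library labelled stomach had the gastric genes TFF1 (89.5 RPM), TFF2 (166) and CLDN18 (188) beside 4506 RPM of COL1A2. Pluripotency markers summed to only 1.76 and 0.973 RPM in the liver and stomach libraries.

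The 3 media were compared first. The steadiest difference among the regulators was in HBP1, which was lower in each successive medium, and the levels that varied most between lines were those of BTG2 and CDKN1A, with an SD of log2(RPM + 1) pooled within media of 0.998 and 0.925. Because the set was chosen with these comparisons known, differences between media are given with their standard errors (SE, limma, 7 lines per medium) as a description, with no p. These SEs are from the main fit, which leaves the cell line out and so does not use the pairing of libraries by line. All differences are of mean log2(RPM + 1), and on this scale the change of a low gene is understated.

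**Figure D1:**
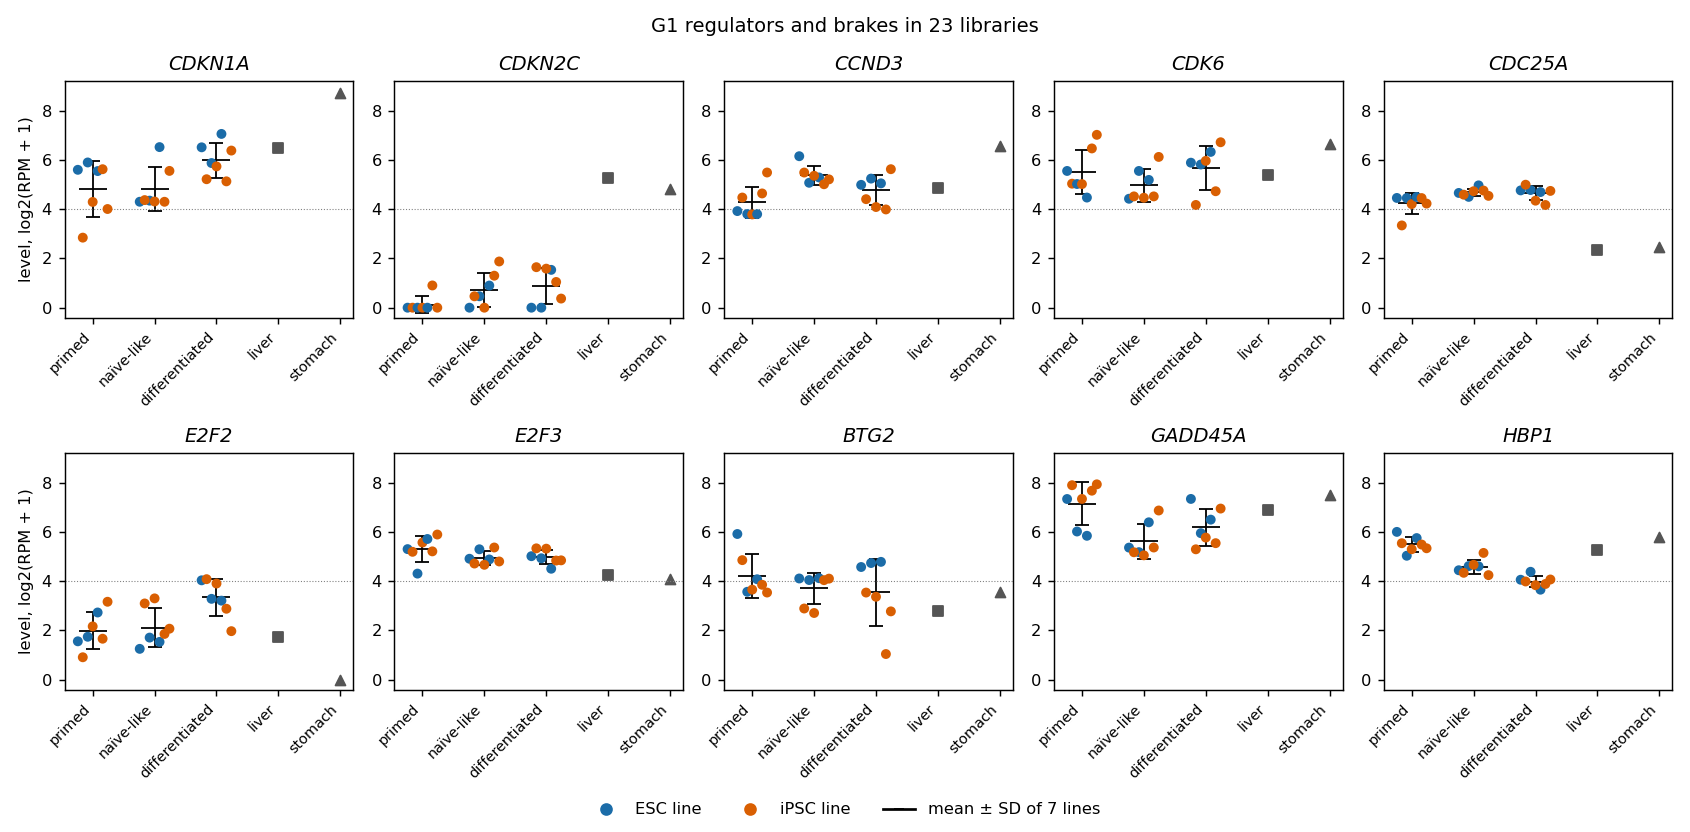
Level of each regulator, as log2(RPM + 1), in the 3 media and in the liver and stomach libraries. Points are libraries (blue, ESC lines; orange, iPSC lines; grey, somatic), bars are the mean ± SD of 7 lines, and the dotted line at 4 is the threshold for expression. CDKN2C lay under the threshold in all PSC libraries and above it in both somatic libraries, and CDC25A was lowest in the somatic libraries.

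HBP1, a transcriptional repressor that slows entry into S phase, had 31.7 RPM (TRSK) to 63.1 RPM (CMK6) in primed libraries, with a median of 43.9. It had 18.0 to 34.5 RPM (median 23.3) in naïve-like and 11.6 to 19.9 RPM (median 14.9) in differentiated libraries. Each of the 7 lines was lower in naïve-like than in primed medium and lower again in differentiated medium, and the primed and differentiated libraries did not overlap. The difference was −0.91 (SE 0.17) for naïve-like minus primed, −0.60 (SE 0.17) for differentiated minus naïve-like and −1.51 (SE 0.17) for differentiated minus primed. With each line left out in turn or under any other alternative, the last of these stayed between −1.65 and −1.41. HBP1 thus had the order primed, naïve-like, differentiated in all 7 lines.

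GADD45A (gene ID 102128083), a stress gene whose product binds p21 and PCNA, was highest in primed cells. Primed libraries had 56.4 RPM in CMK9 and 63.8 in TRSK, and the other 5 had 161 to 243 RPM. Naïve-like libraries had 32.1 to 116 RPM (median 40.2), and differentiated libraries 38.3 to 161 RPM (median 60.8). Naïve-like cells were lower than primed cells in 6 of 7 lines, all except CMK9, by a difference of −1.52 (SE 0.37). On withdrawal of LIF and Dox the level was higher in all 7 lines, from 0.08 in iPS-S12 to 1.98 in CMK6, with a mean difference of 0.56 (SE 0.37), or 0.33 without CMK6. Differentiated cells were still lower than primed cells in 5 of 7 lines, by −0.96 (SE 0.37), and by −0.62 without the 4 libraries under 1000000 reads. The summed fibroblast and mesenchymal markers given above also had their highest range in primed and their lowest in naïve-like libraries. CAV1 and COL1A2 had ranges in that order, but S100A4 and S100A6 had their lowest maximum in differentiated libraries. TWIST1 had its highest value in a naïve-like library (39.9 RPM), and PDGFRA was at most 6.20 RPM in primed libraries. Whether fibroblast-like cells were present, or had a part in the GADD45A levels, was not tested.

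CDKN1A (gene ID 102136063), the p21 inhibitor of cyclin-dependent kinases and a p53 target, differed more between lines than between the primed and naïve-like media. Primed libraries had 6.18 RPM in iPS-L3, 15.1 in iPS-S12, 18.6 in iPS-L6 and 45.7 to 58.5 RPM in iPS-S6 and the 3 ESC lines. In naïve-like medium, 5 lines fell within 18.7 to 19.6 RPM, and iPS-S12 had 45.9 and CMK9 90.7 RPM. In differentiated medium the levels were 34.0 (iPS-S6) to 132 RPM (CMK9), with a median of 57.5. The first comparison gave −0.02 (SE 0.44), with 4 lines higher and 3 lower after conversion, from −1.55 in TRSK to 1.55 in iPS-S12. After withdrawal of LIF and Dox CDKN1A was higher in all 7 lines, by 0.53 in CMK9 to 2.21 in CMK6, with a mean difference of 1.17 (SE 0.44). Differentiated minus primed gave 1.16 (SE 0.44), with TRSK and iPS-S6 lower and the other 5 lines higher.

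BTG2 (gene ID 102141340), an antiproliferative gene and p53 target, had 10.6 to 59.4 RPM (median 13.5, highest in CMK6) in primed libraries. It had 5.54 to 16.4 RPM (median 15.5) in naïve-like libraries and 1.06 to 26.6 RPM (median 10.6) in differentiated libraries. The lowest of these values, in iPS-S6, rests on 1 read. The 3 differences between media were −0.49, −0.17 and −0.66 (SE 0.48 each, in the order above), none of them much larger than its error, and the second turned to 0.30 without iPS-S6 and to 0.02 without iPS-S12. CDKN2C (gene ID 102132965), the p18 inhibitor of CDK4 and CDK6, had 0 reads in 6 of 7 primed libraries and 0 to 2.67 RPM in the other 15 PSC libraries, at most 15 reads. In 5 of 7 lines it was higher in naïve-like, and in 5 in differentiated, than in primed medium, and in none was it lower, but 19 of the 21 libraries had 6 reads or fewer and the differences were not tested.

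**Figure D2:**
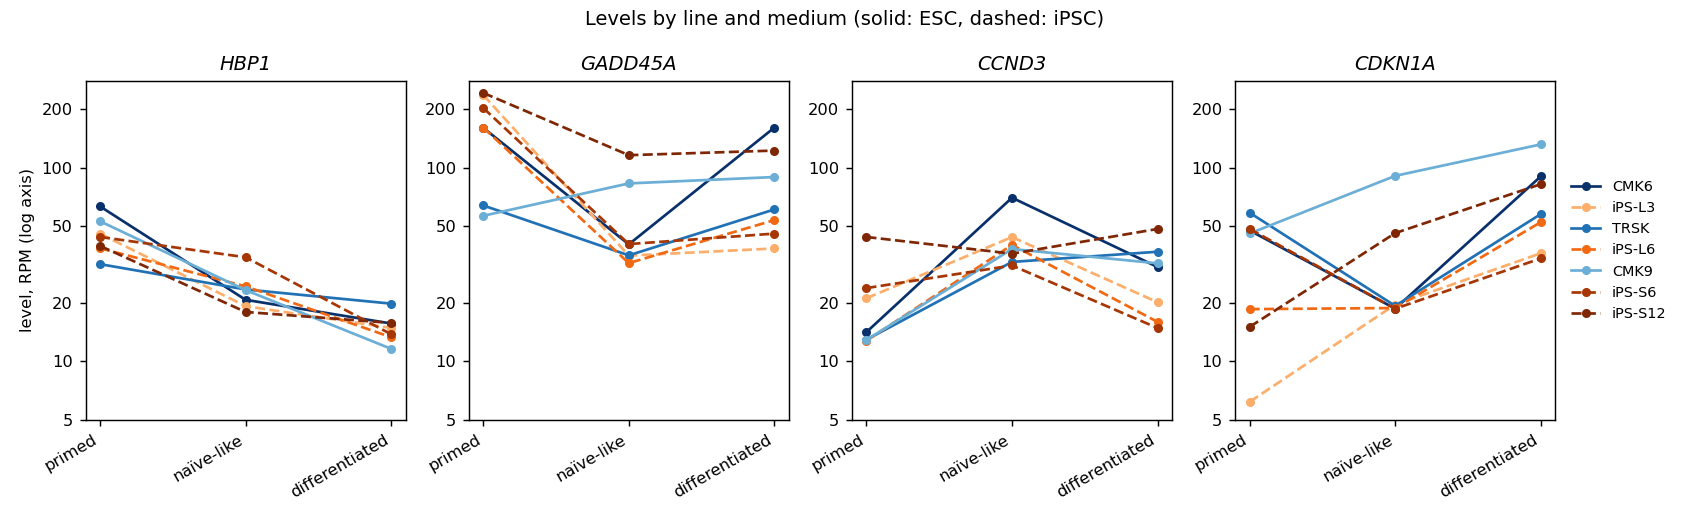
Levels of HBP1, GADD45A, CCND3 and CDKN1A in RPM on a log axis, with 1 path per line through the primed, naïve-like and differentiated media (solid, ESC lines; dashed, iPSC lines). HBP1 was lower at each step of all 7 paths, CCND3 peaked in naïve-like medium in 5 lines, and CDKN1A spread from 6.18 to 58.5 RPM in primed cells.

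Among the drivers, CCND3, which encodes cyclin D3, was lowest in primed cells. It had 12.8 to 23.9 RPM in 6 primed libraries and 43.8 RPM in iPS-S12. Naïve-like libraries had 31.2 to 69.9 RPM (median 38.0, highest in CMK6) and differentiated libraries 14.9 to 48.2 RPM (median 30.7). Conversion went with a higher level in 6 of 7 lines, all except iPS-S12, by a mean of 1.09 (SE 0.28). The other 2 differences were −0.60 for differentiated minus naïve-like and 0.50 for differentiated minus primed (SE 0.28 each), with 5 of 7 lines in the direction of the mean in both.

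CDK6 (gene ID 102140874), a kinase partner of the D cyclins, was highest in iPS-S12 in every medium, with 128 RPM primed, 68.5 naïve-like and 104 RPM differentiated. The other lines had 21.2 to 87.3 RPM primed, 20.4 to 45.9 naïve-like and 17.0 to 79.1 RPM differentiated, so the media overlapped widely. Naïve-like minus primed gave −0.54 (lower in 5 of 7 lines), differentiated minus naïve-like 0.69 (higher in 6 of 7 lines) and differentiated minus primed 0.15 (higher in 4 of 7 lines), each with SE 0.40. Without the 4 libraries under 1000000 reads, the second was 1.09 and the third 0.55, and without CMK9 the third was −0.14.

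CDC25A (gene ID 102137696), the phosphatase that removes inhibitory phosphates from CDK2, varied little between lines, with an SD pooled within media of 0.30, next to 0.28 for HBP1. It had 9.12 RPM in primed iPS-L3 and 17.4 to 21.5 RPM in the other primed libraries, 21.6 to 30.2 RPM in naïve-like and 17.0 to 30.8 RPM in differentiated libraries. All 7 lines were higher in naïve-like than in primed medium and the libraries of these media did not overlap, although the difference was small, at 0.44 (SE 0.18). Differentiated minus naïve-like gave −0.04 and differentiated minus primed 0.41 (SE 0.18 each). Without iPS-L3 the first difference was 0.31 and the last 0.20.

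E2F3 (gene ID 102138138), an activating E2F factor, overlapped between all media. Primed libraries had 18.8 to 58.5 RPM (median 38.5), naïve-like 24.4 to 40.3 (median 28.5) and differentiated 21.7 to 39.3 RPM (median 29.5). Its differences were −0.36, 0.02 and −0.34 (SE 0.20 each, in the order above), and the first and the third became −0.16 and −0.15 without the 3 libraries set apart. E2F2 (gene ID 102128093), also an activating E2F factor, had 0.882 to 7.97 RPM in primed, 1.38 to 8.87 RPM in naïve-like and 2.92 to 15.9 RPM in differentiated libraries. To the nearest read, 8 of the 21 libraries had 6 reads of E2F2 or fewer, and the most was 48. The primed and differentiated levels overlapped through iPS-S12 and iPS-S6. E2F2 gave 0.13 for the first comparison, 1.22 for the second and 1.35 for the third (SE 0.41 each). Without the 3 libraries set apart these were 0.65, 1.08 and 1.73, and without iPS-L3 the first was −0.22. In the second and the third comparisons 6 of 7 lines were higher in differentiated medium, all except iPS-S12.

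**Figure D3:**
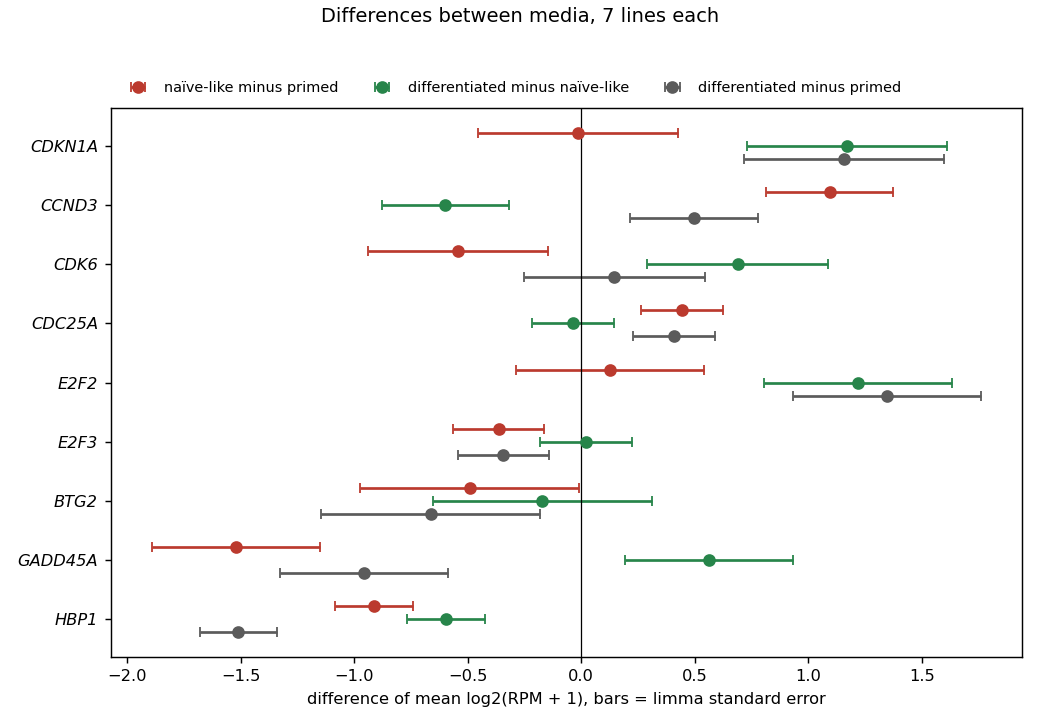
Difference of mean log2(RPM + 1) between media for the 9 expressed regulators, with the limma standard error as bars (7 lines per medium). HBP1 lay left of 0 in all 3 comparisons, CDKN1A and E2F2 lay right of 0 where differentiated cells were compared with either other medium, and GADD45A lay left of 0 against primed cells.

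Read as counts, and as a description only, 3 of the 9 expressed regulators passed adjusted p 0.05 (limma, Benjamini-Hochberg over all genes) for naïve-like minus primed, CCND3 higher and GADD45A and HBP1 lower. Over all 2776 genes 19.2% passed, 11.1% higher and 8.18% lower. For differentiated minus naïve-like 2 of 9 passed, E2F2 higher and HBP1 lower, where 14.1% of all genes passed, 6.41% higher and 7.71% lower. Without any 1 line other than iPS-S12, 0 or 1 of 9 passed there, and without the 3 libraries set apart E2F2 did not pass. HBP1 did not pass there without iPS-L6, iPS-S6 or CMK9, or without the libraries under 1000000 reads. The same 2 genes passed for differentiated minus primed, a comparison that shares its libraries with the others, where 13.4% of all genes passed, 6.27% higher and 7.13% lower. There E2F2 did not pass without CMK6, iPS-L3, TRSK, iPS-L6 or iPS-S6. E2F2 met the expression filter only through 2 differentiated libraries, the state in which it was higher. Its passing in these 2 comparisons is therefore no support for that difference. With the cell line as a replicate block and 3 media in the fit, the third count was 4 regulators and 585 genes in place of 372. That fit changed the other counts of genes by less than 1.5 times. With the block and 2 media in the fit, differentiated minus naïve-like gave 685 genes in place of 392, and 5 regulators. The libraries of CDC25A (naïve-like against primed) and HBP1 (differentiated against primed) did not overlap, which held for 4.07% and 3.24% of all genes, and no regulator was without overlap between naïve-like and differentiated libraries, where 4.36% of genes were.

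The ESC and iPSC lines were compared next, over the mean of each line in its 3 media. The rule that chose the genes does not name this grouping, but it was set with earlier results of these libraries known. The classes did not overlap for 4 of the 9 expressed regulators and for 14.9% of all 2776 genes. CDKN1A and BTG2 were lower in iPSC lines, with all 4 iPSC lines below all 3 ESC lines, but neither passed adjusted p 0.05. CDKN1A had line means of 5.37 (TRSK), 5.47 (CMK6) and 6.37 (CMK9) in ESC lines and of 4.14 (iPS-L3), 4.78 (iPS-L6), 5.02 (iPS-S6) and 5.31 (iPS-S12) in iPSC lines. The difference was −0.93 (SE 0.30, 95% interval −1.60 to −0.25), with p = 0.0571 in the exact two-sided permutation test of 3 against 4 lines and adjusted p = 0.170 in limma. Leaving out CMK9 reduced it to −0.61.

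BTG2 had line means of 4.12 to 4.87 in ESC lines and 2.98 to 3.76 in iPSC lines. The difference was −1.07 (SE 0.26, 95% interval −1.65 to −0.50). Its exact permutation p was 0.0286, which is the lowest that 3 against 4 lines allow, and its adjusted p in limma was 0.0718. The classes did not overlap in differentiated medium, with 22.9 to 26.6 RPM in the ESC lines and 1.06 to 10.6 RPM in the iPSC lines, and overlapped in the other media. Without iPS-S12 both genes passed in limma, CDKN1A with −1.09 (adjusted p = 0.0473) and BTG2 with −1.11 (adjusted p = 0.0394). Over all alternatives the adjusted p ran from 0.0473 to 0.381 for CDKN1A and from 0.0394 to 0.249 for BTG2. The 4 libraries under 1000000 reads are all of iPSC lines. Without them the BTG2 difference was −0.77, the smallest under any alternative. The 4 iPSC lines share a donor and the history of the p53 hairpin vector, so class, donor and derivation cannot be told apart.

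**Figure D4:**
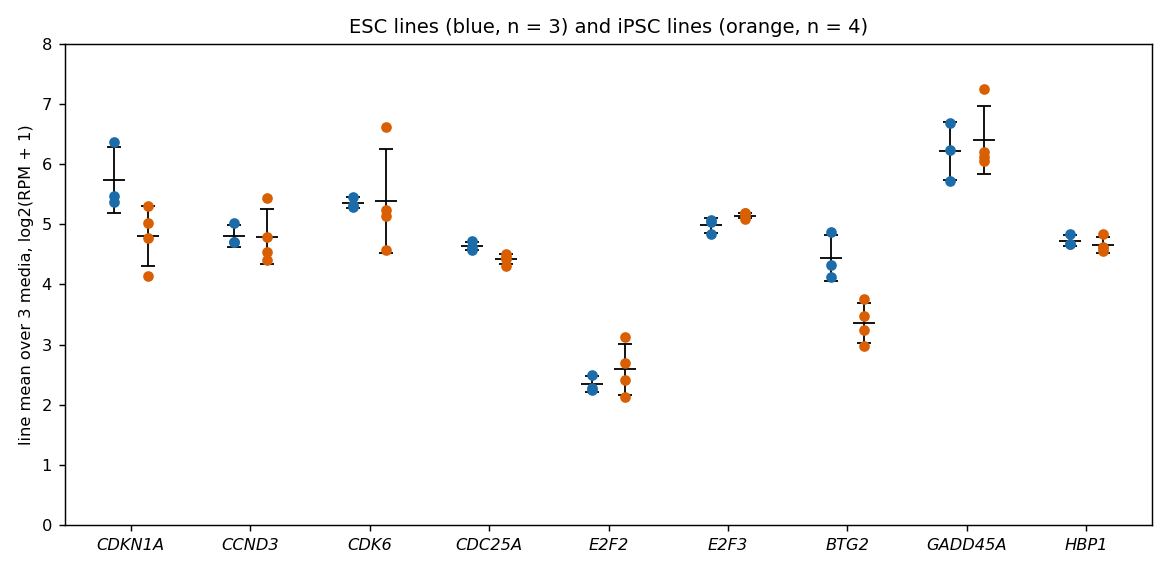
Mean log2(RPM + 1) of each line over its 3 media for the 9 expressed regulators, for ESC lines (blue, n = 3) and iPSC lines (orange, n = 4), with the mean ± SD of each class. The classes did not overlap for CDKN1A, BTG2, CDC25A and E2F3, and the differences of the last 2 were −0.22 and 0.16.

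CDC25A was also lower in all iPSC lines, by −0.22 (SE 0.16), and E2F3 higher, by 0.16 (SE 0.14). Both gave p = 0.0286 in the exact permutation test, while limma gave adjusted p = 0.543 and 0.620. The 5 other expressed regulators overlapped between the classes, with differences from −0.07 (HBP1) to 0.25 (E2F2). Their 95% intervals were widest for CDK6, from −0.80 to 0.87, where iPS-S12 had 6.62 and the other lines 4.57 to 5.46. No regulator passed adjusted p 0.05 in limma, 2 had an unadjusted p under 0.05, and 1.62% of all genes passed (45 of 2776, of 421 with an unadjusted p under 0.05). Without iPS-S12, 160 genes passed, and without any 1 other line 9 to 19.

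Whether conversion or withdrawal moved the regulators differently in the 2 classes was tested on the difference of each line. In limma 0 of 9 regulators and 0 of 2776 genes (0.0%) passed in either test, with 167 and 191 genes at an unadjusted p under 0.05. The classes did not overlap for 0 of 9 regulators on conversion and 1 of 9 on withdrawal, against 6.41% and 6.88% of all genes. For GADD45A the conversion difference was −2.09 ± 0.72 (SD, n = 4) in iPSC lines and −0.75 ± 1.26 (SD, n = 3) in ESC lines, and the classes overlapped (exact permutation p = 0.143). For E2F2 the withdrawal difference was 1.57 to 2.78 in ESC lines and −0.10 to 1.02 in iPSC lines. The ESC differences start from naïve-like levels of only 4 reads (CMK6), 6 reads (TRSK) and 2.2 reads (CMK9, under the floor). That difference of −1.38 (SE 0.44) gave p = 0.0286 in the exact permutation test and adjusted p = 0.616 in limma, and E2F2 was the 1 regulator with an unadjusted p under 0.05. For CDKN1A the withdrawal response was 1.42 ± 0.84 (SD, n = 3) in ESC lines and 0.98 ± 0.30 (SD, n = 4) in iPSC lines, with an interval of the difference from −1.43 to 0.55.

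The somatic libraries, 1 each, were set against the 7 primed libraries without a test. CDKN1A and CDKN2C were higher in both, and CDC25A and E2F3 lower in both. CDKN1A had 88.0 RPM in the liver library (exact Clopper-Pearson 95% interval 74.5 to 103, counting error only) and 419 RPM in the stomach library (396 to 442), and the stomach value was above every PSC library. CDKN2C had 37.6 RPM (64 reads) in liver and 27.6 RPM (85 reads) in stomach, where no PSC library passed 2.67 RPM. CDC25A had 4.11 RPM (7 reads) and 4.54 RPM (14 reads), under the lowest PSC value of 9.12. E2F3 had 18.2 RPM in liver (interval 12.4 to 25.8) and 16.2 RPM in stomach (12.03 to 21.4), and both intervals reached past the lowest PSC value of 18.8. Both libraries lay above all primed libraries for 10.8% and below them for 23.9% of the 2916 genes over the threshold in any library, and for 2 of the 10 regulators each. E2F2 had 4 reads in liver and was listed at 0 in stomach, where the level of 3 reads is 0.973 RPM. CCND3 (28.2 and 93.7 RPM in liver and stomach), CDK6 (41.1 and 99.6) and HBP1 (36.98 and 53.8) were higher in stomach than in liver. Their liver values lay within the primed range, as did the stomach values of CDK6 and HBP1, and the stomach value of CCND3 lay above it. GADD45A, with 119 and 182 RPM, lay within the primed range in both, and BTG2, with 5.87 and 10.7 RPM, lay under it in liver.

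Genes around the regulators were counted from 6 lists that leave the regulators out. A list gene is said to rise or fall only where it passed adjusted p 0.05 (limma). In naïve-like against primed cells 5 of 11 expressed p53 targets had a positive difference, but none rose and 3 fell. Among them EPHA2, an ephrin receptor, fell by a log2 difference of −1.62 (SE 0.34) and PLK3, a stress kinase, by −1.24 (SE 0.35). The median of the list was −0.01, against 0.06 over all genes. In differentiated against naïve-like cells, where CDKN1A was higher in all 7 lines, PERP, a cell adhesion gene, fell by −2.04 (SE 0.25) in all 7 lines and no other target passed. The list had a median of 0.03 against −0.02 over all genes, and 3 targets had an unadjusted p under 0.05. Against primed cells 3 of 11 fell in differentiated cells, PERP and PLK3 among them. With the cell line as a replicate block, 1 more target passed in each comparison, named here after its values were seen. It was the sestrin gene SESN2 on conversion, higher by 0.53, and IGFBP3, which encodes a binding protein of insulin-like growth factors, in differentiated cells, higher by 1.45 than in naïve-like and by 1.51 than in primed cells. Between ESC and iPSC lines 0 of 11 targets passed in limma and 4 had an unadjusted p under 0.05, with a median difference of 0.03 against 0.00 over all genes. Of these 4, named after their values were seen, PHLDA3 (−0.89), ZMAT3 (−0.89) and GPX1 (−0.40) were lower in iPSC lines and SESN2 (0.46) was higher.

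Only 4 other G1 genes were expressed among those analysed here, and TFDP2, a dimer partner of the E2F factors, fell by −0.65 (SE 0.21) in naïve-like and by −0.71 (SE 0.21) in differentiated cells, both against primed cells and in all 7 lines. Its fall on conversion no longer passed when any 1 line other than TRSK or iPS-S12 was left out, and its lower level in differentiated cells did not pass without CMK6 or CMK9. Between naïve-like and differentiated cells 0 of 4 passed, and 0 of 4 had an unadjusted p under 0.05. Of 21 replication and S-phase genes, 2 rose in naïve-like cells, the single-strand binding subunit RPA2 by 0.66 (SE 0.19) and the origin recognition subunit ORC5 by 0.60 (SE 0.16). Both were also higher in differentiated than in primed cells, and CLSPN, a checkpoint adaptor, rose by 0.66 (SE 0.22) from naïve-like to differentiated cells. The other 19 in the first comparison did not pass, and the share that passed, 9.52%, was under that of all genes. Without iPS-L3 or iPS-L6 none of the 21 passed in the first comparison, without iPS-S6 1 did, and with 1 line left out CLSPN passed only where that line was TRSK.

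Of 16 G2 and mitosis genes, 4 rose and 1 fell in naïve-like cells. ANAPC4, a subunit of the anaphase-promoting complex, rose by 1.36 (SE 0.17) in all 7 lines and fell by −1.19 (SE 0.17) in all 7 on withdrawal. MAD2L2 followed the same course, with 0.58 and −0.62 (SE 0.17 each). KIF15, a mitotic kinesin, rose by 0.70 (SE 0.23) and CENPF, a kinetochore protein, fell by −0.60 (SE 0.19) on conversion. Without the 3 libraries set apart, 1 of the 16 passed in that comparison, and 2 or 3 passed without any 1 line other than TRSK.

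Of 9 antiproliferative and quiescence genes, TXNIP, an inhibitor of thioredoxin, rose by 2.34 (SE 0.37) and the forkhead factor FOXO3 by 1.13 (SE 0.23) in naïve-like against primed cells, both in all 7 lines and opposite to HBP1 and GADD45A. In this comparison only 3 of the 9 had a positive difference, and the median of the list was −0.13 against 0.06 over all genes. TXNIP stayed higher in differentiated cells, with 21.2 to 41.4 RPM against 1.23 to 26.3 in primed cells. FOXO3 fell by −1.20 (SE 0.23) and PNRC1, a nuclear receptor coactivator, by −1.62 (SE 0.27) on withdrawal, in all 7 lines, as HBP1 was lower there too. Of 7 immediate-early genes, 4 fell on conversion. These were ID3, an inhibitor of basic helix-loop-helix factors, by −2.38 (SE 0.23), the kinase gene SGK1 by −1.07 (SE 0.38), IER5 by −1.05 (SE 0.20) and the stress factor ATF3 by −0.96 (SE 0.34), and the median was −1.05 against 0.06 over all genes. ID3 had 272 to 949.9 RPM in primed and 47.3 to 120 RPM in naïve-like libraries, with no overlap. On withdrawal SGK1 rose by 1.295 (SE 0.38) and ATF3 by 1.25 (SE 0.34), in all 7 lines, as CDKN1A and GADD45A were higher in all 7. The adjusted p of SGK1 and ATF3 on conversion (0.0494 and 0.04999 in limma) was at the threshold, and 2 of the 7 genes passed with a pseudocount of 0.1 or without CMK6, iPS-L6, iPS-S6 or iPS-S12. On withdrawal none of the 7 passed without iPS-L6, and 1 without CMK6, iPS-L3, iPS-S6 or iPS-S12.

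**Figure D5:**
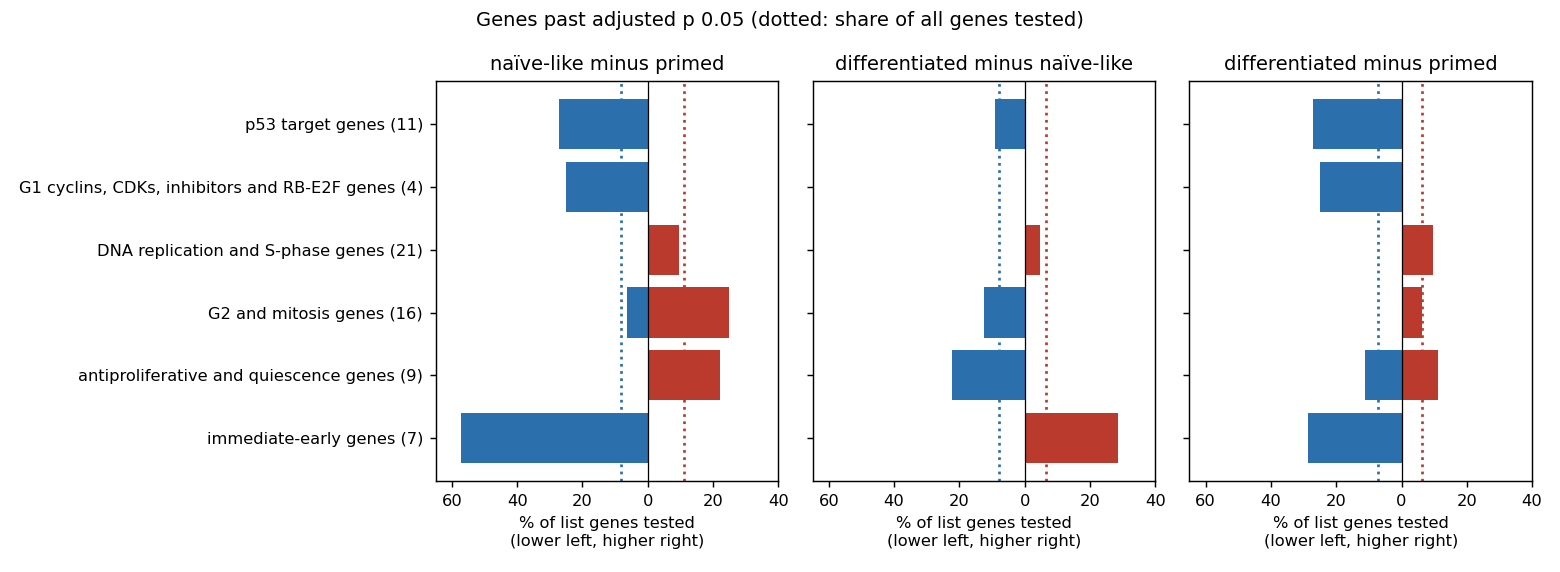
Share of the expressed genes of each list that passed adjusted p 0.05 (limma) in the 3 comparisons of media, with genes lower to the left and genes higher to the right, and the number of genes tested in brackets. Dotted lines are the shares over all 2776 genes. Immediate-early genes (4 of 7) and p53 targets (3 of 11) stood left of the line for lower genes in naïve-like minus primed, and replication genes (2 of 21) stayed within the line for higher genes.

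The genes most like each regulator over the 21 PSC libraries were named by Pearson correlation of log2(RPM + 1), as a description, since the points share lines, media and depth. For GADD45A these included CSF1 (r = 0.88) and HIVEP3 (0.87). For CDK6 they were ME1 (0.87), EGFR (0.86) and NME7 (0.83), and these correlations were 0.82 to 0.87 after the mean of each medium was removed. CDKN1A lay closest to CXCL6 (0.82), PPP1R14C (0.81) and DYNLT1 (0.79), and HBP1 closest to IFNGR1 (0.86), RABGAP1L (0.83) and PCNXL2 (0.82). The last 2 of HBP1 dropped to 0.30 without the medium means. E2F3 was most like USP1 (0.74), SMC4 (0.73) and ASPM (0.73), which act in DNA repair and mitosis. CCND3 was closest to STX7 (0.84), ZBTB8OS (0.80) and OSTM1 (0.76), and CDC25A to PSMG3 (0.81), ZKSCAN7 (0.78) and RCC1 (0.76). BTG2 was closest to DBT (0.78), GOLGB1 (0.76) and NFYA (0.73), and E2F2 to IFT57 (0.74), FAXC (0.69) and H1-3 (0.69). Among the regulators themselves, CDK6 and GADD45A had r = 0.65 and CDKN1A and CDC25A r = 0.59.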

How the data were processed

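The authors made cDNA from 1 ng of total RNA, read its 3′ ends as single 75 bp reads and computed expression levels with Cufflinks. The submitters' processing notes name cutadapt 1.3, TopHat 1.4.1 and Cufflinks 2.2.0. The deposited values are RPM, 1 column per library, and all 23 columns were matched to a line and medium by name. An incomplete last row was left out. The held genes sum to 24.8% to 27.5% of a library, so other genes were not analysed here. RPM values lie on a step that is worth 1 read and gives the depth, but only 87.9% to 94.3% of values under 200 reads were whole multiples of it (within 0.02 of a read), so no count test was run.

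Values were taken as log2(RPM + 1) and genes kept above 4 in at least 1 PSC library. Media were compared with limma 3.58.1 (R 4.3.3) with a mean-variance trend, 3 media in 1 fit, two-sided, Benjamini-Hochberg adjusted p under 0.05. ESC and iPSC lines were compared over 7 line means or line differences, in limma and, for the 10 regulators, by exact two-sided permutation over 35 divisions. Lines are the replicates. The line named in the labels pairs the libraries, but the main fit of the media left the line out. Deviations from the medium means correlated at 0.269 on average for libraries of the same line (21 pairs) and −0.0842 for different lines (189 pairs).

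The members and lists were chosen with earlier results of these data known. Named genes are the regulators, up to 4 genes per list and comparison with the largest difference among those that passed, the 3 nearest genes by correlation, and markers. Some genes that this rule names are not reported here. Alternatives were another pseudocount, no or a stricter filter, quantile normalization, library centring, no trend, the block, 2 media in the fit, each line left out and 3 libraries left out. Leaving out libraries under 1000000 reads and the block with 2 media in the fit were added after the data were seen. The fits were tested on simulated data.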

Additional observations from a re-analysis of the deposited data

Results flagged for a closer look

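In the groups of 7 libraries, a sample was set apart when its gap to the nearest value exceeded Dixon's critical share of the whole range. Gaps and ranges were taken on log2(RPM + 1), not on RPM. Of 27 groups of expressed regulators 2 held such a value, and chance alone gives about 1.35. CCND3 in naïve-like CMK6 was the highest of 7, at 69.9 RPM with the next at 43.8 RPM, a gap of 0.583 of the range. CDC25A in primed iPS-L3 was the lowest of 7, at 9.12 RPM with the next at 17.4 RPM, a gap of 0.749 of the range. Without iPS-L3 the CDC25A difference of naïve-like minus primed was 0.31 in place of 0.44, and without CMK6 the CCND3 difference was 0.91 in place of 1.09.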

How the results depend on the processing

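All 483 recomputed differences of a regulator between media moved by less than the spread between lines, and no difference past the threshold changed sign. Of 402 recomputed differences of a regulator between line classes, 2 newly passed the threshold, CDKN1A and BTG2 without iPS-S12. The number of genes past the threshold for differentiated minus naïve-like was 392, and 685 with the replicate block and 2 media in the fit. For differentiated minus primed it was 372, 585 with the replicate block and 218 without libraries under 1000000 reads. The replicate block gave 724 for naïve-like minus primed in place of 534 and 550 for differentiated minus naïve-like. For iPSC minus ESC lines it was 45, 24 without the trend and 25 without libraries under 1000000 reads. The difference of the conversion response between classes gave 5 genes without the filter in place of 0. With each line left out, the counts ran from 302 to 527 for naïve-like minus primed, 219 to 342 for differentiated minus naïve-like, 241 to 392 for differentiated minus primed and 9 to 160 for iPSC minus ESC lines, where 160 came without iPS-S12 and 0 to 2 regulators passed. The regulators that passed for differentiated minus naïve-like were 2, but 1 with a pseudocount of 0.1, no or a stricter filter, quantile normalization or without the 3 libraries set apart, 0 without libraries under 1000000 reads and 5 with the replicate block and 2 media in the fit. For differentiated minus primed they were 2, but 1 with no or a stricter filter or without libraries under 1000000 reads, as E2F2 did not pass or, under the stricter filter, was not among the genes tested. The causes were not tested, other than that fewer libraries or genes entered some fits. Counts of regulators between media are a description only, as the set was chosen with these comparisons known. Of 324 recomputed counts of list genes, 72 moved by more than 1.5 times. With the replicate block and 2 media in the fit, 4 p53 targets passed for differentiated minus naïve-like (3 higher) in place of 1, and 4 in place of 2 each of the antiproliferative and immediate-early genes. Other scalings moved the median of all genes by less than 0.1. Depth limits CDKN2C and E2F2, with 6 reads or fewer in 19 and 8 of the 21 PSC libraries.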
